A study of Caenorhabditis elegans with 2 samples.

Results

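The molecular chaperone and heat shock genes of Caenorhabditis elegans were taken as every protein-coding gene of WBcel235 (the same sequence as ce11) with a symbol that begins with hsp-, dnj-, cct- or pfd-. The rule gave 65 of 19973 nuclear protein-coding genes, with 22 in the hsp, 29 in the dnj, 8 in the cct and 6 in the pfd family. Binding near these genes was read from ChIP-seq, the sequencing of DNA that is precipitated with a chromatin protein, here the T-box transcription factor TBX-2. The 2 biological replicates form 1 group with nothing to compare it with, and comparisons were made among genes and between replicates. All samples were whole hermaphrodite embryos of strain OP159 at the late embryonic stage, taken 3.5 h after the population had been synchronized by bleaching. The genotype was unc-119(ed3) III; wgIs159, in which TBX-2 carries a GFP-FLAG tag at its C-terminus, and the precipitation used an antibody against GFP. No list from an untagged strain was used here, so promoters where peaks would form with any antibody and promoters bound by TBX-2 cannot be told apart. The labels do not name the promoter that drives the tagged copy, and peak lists hold no expression against which the stage could be checked. In whole embryos, few cells with strong binding and many cells with weak binding cannot be told apart either.

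Chaperones bind unfolded proteins and help them to fold. Hsp70 proteins work with J-domain proteins (the dnj genes), which deliver substrates and stimulate ATP hydrolysis, and with nucleotide exchange factors, while the CCT chaperonin folds actin and tubulin that prefoldin (the pfd genes) hands over. Some of these genes are expressed all the time, others are switched on by heat through the factor HSF-1, and the chaperones of the endoplasmic reticulum and of mitochondria answer to stress in their own compartment.

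The windows below reach 50 bp to each side of the summit, the highest point of the peak, and were read from the RefSeq WBcel235 genome on the strand of the gene. They are shown because the first 5, at cytosolic chaperone genes, each hold a heat shock element, the word that HSF-1 recognizes as inverted repeats of its unit (GAANNTTC or TTCNNGAA), and the next 3, at genes for organelle chaperones, hold none. They were picked for this and are examples of both kinds, since other cytosolic summits also lack the element. The last of the windows, at cct-7, is shown because it holds an 8-base word, GGCCGTGG, also found at pfd-4 and pfd-5. Capitals mark matches on either strand to the 8 motifs that were counted, and those that occur in these windows are the heat shock element, the GA repeat GAGAGAGA, CTGCGTCT, CCAAT and GGCCGTGG.
hsp-90, chrV:14685729-14685829, plus strand: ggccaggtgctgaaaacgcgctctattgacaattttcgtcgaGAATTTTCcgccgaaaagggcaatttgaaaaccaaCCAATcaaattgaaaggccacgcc
hsp-1, chrIV:17278553-17278653, plus strand: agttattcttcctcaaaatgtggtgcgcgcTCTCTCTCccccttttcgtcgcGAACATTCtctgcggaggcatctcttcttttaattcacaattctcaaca
hsp-110, chrIII:8447111-8447211, minus strand: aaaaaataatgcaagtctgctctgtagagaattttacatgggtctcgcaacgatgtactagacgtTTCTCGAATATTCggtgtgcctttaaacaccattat
dnj-13, chrII:11545427-11545527, plus strand: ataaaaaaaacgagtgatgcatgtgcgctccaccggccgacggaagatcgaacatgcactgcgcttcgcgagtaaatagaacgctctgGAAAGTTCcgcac
pfd-5, chrIII:7198983-7199083, minus strand: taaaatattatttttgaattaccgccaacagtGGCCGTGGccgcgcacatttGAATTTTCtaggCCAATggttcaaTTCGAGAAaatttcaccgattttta
hsp-60, chrIII:1619069-1619169, plus strand: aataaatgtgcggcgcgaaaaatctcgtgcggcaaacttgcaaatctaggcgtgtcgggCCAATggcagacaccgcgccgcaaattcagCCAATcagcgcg
hsp-6, chrV:4827152-4827252, minus strand: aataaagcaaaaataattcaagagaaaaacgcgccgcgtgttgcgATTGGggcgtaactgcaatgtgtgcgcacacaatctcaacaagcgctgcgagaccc
hsp-3, chrX:6092127-6092227, minus strand: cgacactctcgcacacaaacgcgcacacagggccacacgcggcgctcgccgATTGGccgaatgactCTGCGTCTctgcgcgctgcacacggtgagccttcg
cct-7, chrV:1871898-1871998, plus strand: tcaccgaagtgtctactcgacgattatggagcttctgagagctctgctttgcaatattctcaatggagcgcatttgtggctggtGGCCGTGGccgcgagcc
In the hsp-110 window the capitals are 2 heat shock elements that overlap.

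The heat-inducible genes hsp-16.2 and hsp-16.41, which encode small heat shock proteins, point away from each other, and the 220 bp between them hold 3 heat shock elements, of which the first 2 overlap, and 1 CTGCGTCT. This stretch is shown because it is longer and carries more heat shock elements than any window above, and had no peak in the optimal set.
hsp-16.2 to hsp-16.41, chrV:1804958-1805177, plus strand: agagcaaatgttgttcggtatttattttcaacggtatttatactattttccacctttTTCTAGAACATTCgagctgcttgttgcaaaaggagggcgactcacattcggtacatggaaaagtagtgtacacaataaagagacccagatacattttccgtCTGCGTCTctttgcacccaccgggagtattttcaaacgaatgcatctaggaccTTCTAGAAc

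A peak of the optimal set, the pooled peaks that the submitters kept after a threshold on the irreproducible discovery rate, was centred no more than 1 kb from a 5′ end at 28 of the 65 genes (43.1%, 95% exact interval 30.8 to 56.0), against 11.5% of all nuclear protein-coding genes. Those 28 genes are said to have a peak in what follows. Each had a peak of its own, with no sharing. Taking instead the 3053 strongest peaks of a single replicate, the length of the optimal set, 26 genes had one in replicate 1 (40.0%, against 11.2% of all genes) and 31 in replicate 2 (47.7%, against 11.3%), which is 43.8% ± 5.44 (SD, n = 2). The peaks at these genes were also among the stronger ones, with a median signal of 207 against 138 over all genes with a peak, and 21 of the 28 lay above that value. Among the 500 strongest optimal peaks 12 of the 65 genes had a peak (18.5%, against 2.38% of all genes), and among the 1526 strongest 22 had one (33.8%, against 6.66%). With a summit required in the top lists of both replicates, 26 had one (40.0%, against 9.2%). A narrower window of 500 bp gave 24 (36.9%, against 8.72%) and a wider one of 2 kb gave 29 (44.6%, against 15.9%). The signal is the value the submitters' peak caller gave each peak, its scale differs between the lists, and it serves here for ranks within a list. With 1 group and peak lists only, no test was run on these shares, and intervals cover counting error over genes alone.

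Chaperone genes were grouped as constitutive, heat-inducible or induced by stress in an organelle. The heat-inducible class holds only hsp-16 genes and hsp-70. No expression was measured, so whether genes called constitutive are also raised by heat was not checked. These classes hold only genes of the symbol rule, so heat shock genes with other names, such as the Hsp70 genes F44E5.4 and F44E5.5, are not in them. Of 33 constitutive genes 20 had a peak (60.6%, interval 42.1 to 77.1; 57.6% ± 4.29 over the replicates, SD, n = 2), and of 7 heat-inducible genes 0 had one, which allows a share of up to 42.9% and so does not set these genes apart from the 11.5% of all genes. Replicate 1 gave 18 constitutive and 0 heat-inducible genes, and replicate 2 gave 20 and 2. Among 6 organelle-stress genes 4 had a peak (66.7%, interval 22.3 to 95.7), and among the 19 genes put in no class 4 had one (21.1%). By compartment, 17 of 30 cytosolic (56.7%, interval 37.4 to 74.5), 4 of 6 endoplasmic reticulum and 2 of 4 mitochondrial genes (50%, interval 6.76 to 93.2) had a peak. The intervals of the 3 compartments overlapped throughout. Of the 25 genes of no assigned compartment 5 had a peak (20%). Within the hsp family 6 of 9 genes for large Hsp proteins had a peak, and 1 of 13 genes for small heat shock proteins did (7.69%), near the 11.5% of all genes. The large Hsp count was 2 with each summit given only to its nearest gene. The small count was 0 with that assignment, within 500 bp or with upstream summits only, and 3 with replicate 2 alone, and the difference was not tested.

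**Figure D1:**
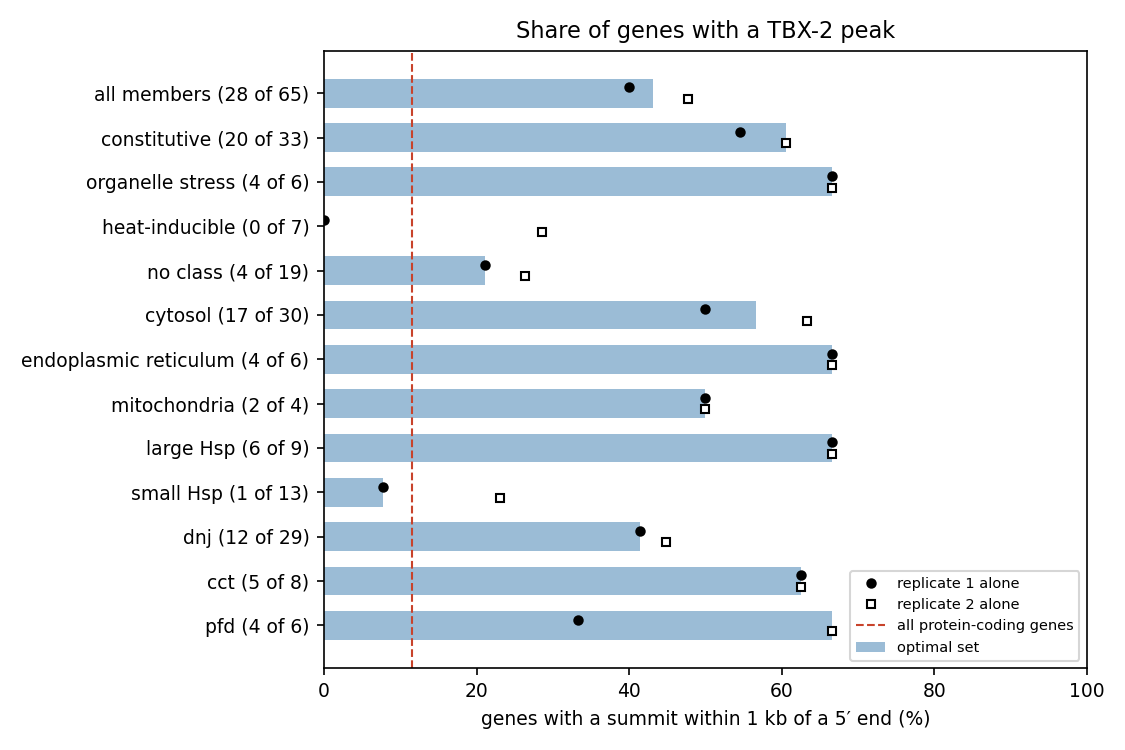
Share of genes with an optimal peak within 1 kb of a 5′ end, in percent, for classes, compartments and families of chaperone genes (members). Bars (optimal set) start at 0, filled and open points give replicate 1 and replicate 2 alone, and the dashed line is all genes; the constitutive genes stand at 60.6% and the heat-inducible genes at 0, against 11.5% of all genes.

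The cytosolic Hsp70 and Hsp90 machinery carried strong peaks. At hsp-90, the gene of cytosolic Hsp90, the peak on chromosome V from 14685619 to 14685907 had a signal of 383 in the optimal list, 203 in replicate 1 and 177 in replicate 2. Its ranks were 84 of 3053, 110 and 74 in the same order. Its summit lay at -381 bp from a 5′ end (negative distances are upstream), inside an intron of a longer annotated hsp-90 transcript, and nearer to C47E8.4, a FAM50 homologue on the other side (-294 bp). At hsp-1, the constitutive Hsc70 of the cytosol, the peak on chromosome IV from 17278469 to 17278714 had signals of 316, 168 and 154 in the same order, with ranks of 169, 207 and 123. This summit stood -356 bp from hsp-1 and no other 5′ end was nearer. At hsp-110, a nucleotide exchange factor for Hsp70, the signals were 219, 133 and 86.1 and the ranks 492, 416 and 648, with a summit at -252 bp. The 5′ end of rpn-3, a subunit of the proteasome, was nearer to that summit (-192 bp). The hsp-110 peak was thus weaker than those of hsp-90 and hsp-1 in both replicates.

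The J-domain partners of the cytosolic Hsp70 had peaks of middle rank. The gene dnj-12, of the class A J-proteins, had signals of 207 in the optimal list, 120.2 in replicate 1 and 86.0 in replicate 2, at -74 bp. The class B gene dnj-13 had 196, 97.7 and 99.8, with a summit at -224 bp that lay in an intron of the neighbouring gene dhgd-1. The class A gene dnj-19 had 152, 82.5 and 66.6, at -376 bp, and only -20 bp from nhr-47, a nuclear hormone receptor gene on the opposite side. Their optimal ranks were 566, 640 and 1091, and each replicate had all of them in its top list. Human relatives of hsp-1, hsp-110, dnj-12 and dnj-13 together dissolve protein aggregates, and the 4 worm genes, a set picked after their values were seen, all had a peak.

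**Figure D2:**
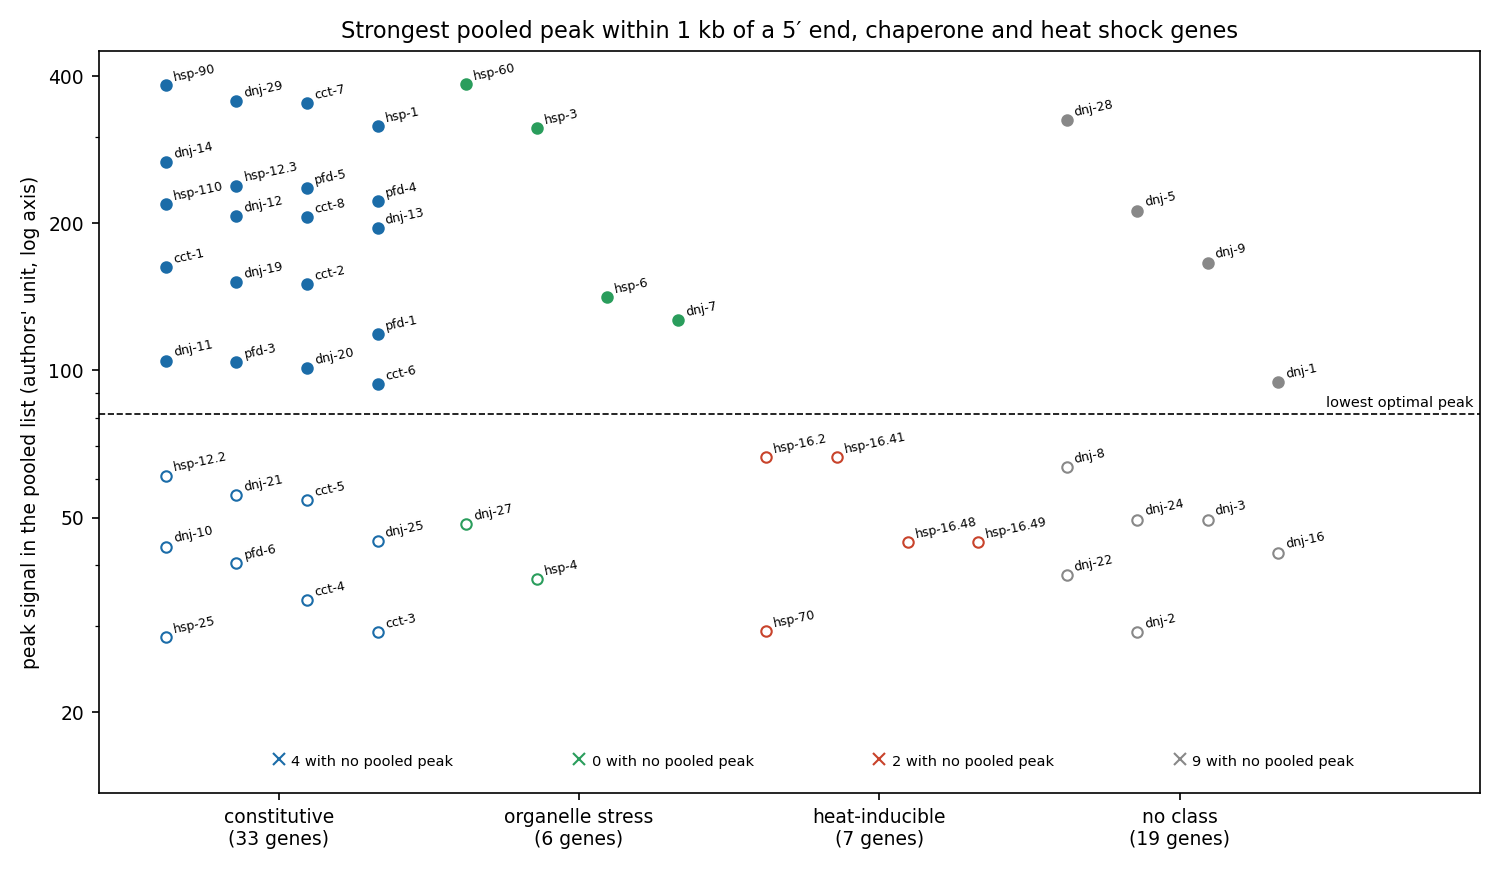
Signal of the strongest pooled peak within 1 kb of a 5′ end (the submitters' unit, log axis) for each chaperone gene, in columns by class. Filled points belong to the optimal set, open points do not, the dashed line is the lowest optimal signal (81.6), and crosses count genes with no pooled peak; no heat-inducible gene lies above the line.

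The CCT chaperonin is a ring of different subunits, each from its own cct gene, and 5 of its 8 genes had an optimal peak, as they did in each replicate. The strongest was at cct-7, with a signal of 353 in the optimal set (rank 117), 195 in replicate 1 (rank 130) and 159 in replicate 2 (rank 112). It lay on chromosome V from 1871812 to 1872068, -298 bp from cct-7 and -141 bp from T10B5.4, a gene with an acetyltransferase domain. The next were cct-8 with 206, 130 and 76.4, cct-1 with 163, 81.6 and 75.7, and cct-2 with 150.2, 70.9 and 78.6. The peak of cct-6 was the weakest of all 28, with 93.8 in the optimal list, 49.9 in replicate 1 and 39.6 in replicate 2, and its summit was -324 bp from cct-6 and -7 bp from alh-9, an aldehyde dehydrogenase gene. Other genes were also nearer at cct-8 (Y55F3AR.2, -182 bp against -439 bp) and at cct-1 (mig-5, the Dishevelled gene, -187 bp against -233 bp), so of the family only the cct-2 summit was nearest to a cct gene, at -295 bp. The remaining subunit genes had weak pooled peaks outside the optimal set, at rank 5902 for cct-5, 13389 for cct-4 and 17341 for cct-3 among 25747.

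Prefoldin, a co-chaperone that passes actin and tubulin to CCT, had peaks at 4 of its 6 genes, and these were where the replicates parted most. At pfd-5 the signals were 236 in the optimal list, 108 in replicate 1 and 122 in replicate 2, with ranks of 395, 683 and 248 and a summit at -149 bp. At pfd-4 they were 222, 115.3 and 106, with ranks of 474, 587 and 383 and a summit at -121 bp, -67 bp from B0035.22, which lies upstream on the same strand. Each replicate had both genes in its top list. The genes pfd-1 and pfd-3 were not: pfd-1 had signals of 119, 43.1 and 74.0 and ranked 1683, 3858 and 886, and pfd-3 had 104, 46.5 and 58.4 and ranked 2067, 3392 and 1377. Replicate 1 alone therefore gave 2 prefoldin genes and replicate 2 gave 4. The pfd-1 summit was about as far from pfd-1 (-305 bp) as from F01G4.6, the gene of the mitochondrial phosphate carrier (-304 bp). No peak lay at pfd-2 in any list, and pfd-6 had a pooled peak at rank 9850.

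In the endoplasmic reticulum, the 2 genes for the Hsp70 chaperone BiP differed. At hsp-3 the peak on chromosome X from 6092035 to 6092326 had a signal of 314 in the optimal set (rank 173), 150.1 in replicate 1 (rank 295) and 159 in replicate 2 (rank 111), with the summit at -53 bp. At hsp-4, the BiP gene known as a reporter of the unfolded protein response, there was no optimal peak, and the strongest pooled peak had a signal of 37.4 at rank 11330. Its strongest peaks ranked 6327 in replicate 1 and 4920 in replicate 2, so hsp-4 was low in both. The gene dnj-29, which encodes the SEC63 homologue of the translocon, had signals of 356, 226 and 129 and ranks of 115, 76 and 212, with its strongest summit at -166 bp and a second optimal summit within 1 kb. Weaker peaks lay at dnj-7, the homologue of the mammalian p58IPK (127, 65.4 and 58.1, at -503 bp), and at dnj-20, the homologue of the mammalian ERdj3 (101.2, 49.6 and 49.6, at -325 bp in an intron of a longer dnj-20 transcript). The gene dnj-27, homologous to ERdj5, had none, and its strongest pooled peak ranked 7160.

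Among the 4 genes assigned to mitochondria the peaks stood at the chaperonin and at mortalin. Assignments came from general knowledge, and hsp-75, annotated with an HSP90-like ATPase domain, was assigned to no compartment. No peak lay at hsp-75 in any list. The strongest peak at any of the 65 genes was at hsp-60, with a signal of 385 in the optimal list, 213 in replicate 1 and 174 in replicate 2 and ranks of 82, 88 and 76. It lay on chromosome III from 1618994 to 1619263, -623 bp from hsp-60 and -190 bp from Y22D7AL.10, the gene of the mitochondrial 10 kDa heat shock protein, on the opposite strand. The products of these neighbours work together, since the small protein is the lid of the Hsp60 chamber. At hsp-6, the mitochondrial Hsp70 or mortalin, the signals were 141, 76.8 and 66.0 and the ranks 1233, 1403 and 1098, with the summit at -442 bp and nearer to C37H5.5, a nucleolar complex gene (-158 bp). The J-protein genes of the same compartment, dnj-10 and dnj-21 (a subunit of the inner membrane import motor), had pooled peaks at ranks 8603 and 5651 and none in the optimal set.

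None of the small heat shock genes induced by heat reached the optimal set. The peak near the start of hsp-16.41, with its summit 8 bp inside that gene and at -229 bp from hsp-16.2, came nearest, with a signal of 66.4 at rank 4207 in the pooled list. It had a signal of 39.2 at rank 4608 in replicate 1, and 48.6 at rank 1879 in replicate 2. The 2 heat-inducible genes counted with replicate 2 alone are this pair, and they share that 1 peak. The genes hsp-16.1, hsp-16.48, hsp-16.49 and hsp-16.11 lie in an exact inverted repeat, with identical copies of 1881 bp on chromosome V at 9086861 to 9088741 and 9089156 to 9091036. Inside these copies lay 0 summits in each of the 4 lists, and hsp-16.1 and hsp-16.11 had no peak within 1 kb, while hsp-16.48 and hsp-16.49 were within 1 kb of a pooled peak in the space between the copies (rank 8264). The file lists of the submitters name a signal of unique reads, and reads from such copies have no unique place; the part of this in the absence of peaks was not tested. Without these 4 genes 0 of 3 heat-inducible genes had a peak, too few to give a limit. The third of them, hsp-70, a heat-inducible Hsp70, had a pooled peak of signal 29.3 at rank 17208, and it was weak in both replicates (ranks 21790 and 18450).

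Of the small heat shock genes that are not of the hsp-16 group, hsp-12.3 had a peak, with signals of 239 in the optimal list, 128 in replicate 1 and 107 in replicate 2. The strongest summit lay 947 bp downstream of its 5′ end, past the gene, and nearer to F38E11.9 (-520 bp). It was the only one of the 28 peaks downstream of the 5′ end, and with all 6 constitutive small heat shock genes left out, 19 of 27 constitutive genes had a peak (70.4%). The gene hsp-12.2 followed outside the optimal set at pooled rank 4855 (replicate ranks 4788 and 6378). No peak lay in any list at hsp-12.6 or hsp-17.

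The remaining J-protein genes spanned a wide range. The gene dnj-28 had signals of 325 in the optimal list, 158 in replicate 1 and 157 in replicate 2, with ranks of 150, 261 and 116 and a summit at -114 bp. At dnj-14, which encodes the cysteine-string protein of synaptic vesicles, they were 267, 157 and 107.5, with a summit at -302 bp and nearer to glit-1, a neuroligin-like gene (-229 bp). Both lay well above the median of all genes with a peak. The values were 212, 132 and 82.5 at dnj-5 (-783 bp), and 166, 104.0 and 61.8 at dnj-9 (-229 bp). The weaker peaks were those of dnj-11, the homologue of the ribosome-bound DNAJC2 (105, 56.1 and 47.7, at -247 bp and nearer to F38A5.2), and of dnj-1 (94.7, 56.7 and 37.8, at -252 bp). Just below the optimal set, dnj-8 was uneven between replicates, with a pooled rank of 4540 and ranks of 9822 in replicate 1 and 2718 in replicate 2. In all, 12 of 29 dnj genes had a peak (41.4%). Of the 37 chaperone genes without an optimal peak 22 had a relaxed pooled peak and 10 had no peak in any list. Counting genes with an optimal peak too, 50 chaperone genes (76.9%) and 8882 of all nuclear protein-coding genes (44.5%) had a relaxed pooled peak. Such peaks are thus common, and one outside the optimal set does not by itself mark a gene as bound.

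The replicates ordered the 28 genes alike. Each had a peak in both relaxed lists, 26 were in the top list of replicate 1 and 28 in that of replicate 2, and the exceptions were pfd-1 and pfd-3. Across the 28 genes Spearman's rho between the replicate signals was 0.880 and Pearson's r of log2 signals 0.866, given as a description, since the optimal set was chosen on the pooled reads of these libraries. The rank was better in replicate 2 for 20 genes and in replicate 1 for 8. Genes without an optimal peak but in a top list were 3, hsp-16.2, hsp-16.41 and dnj-8, all in replicate 2.

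**Figure D3:**
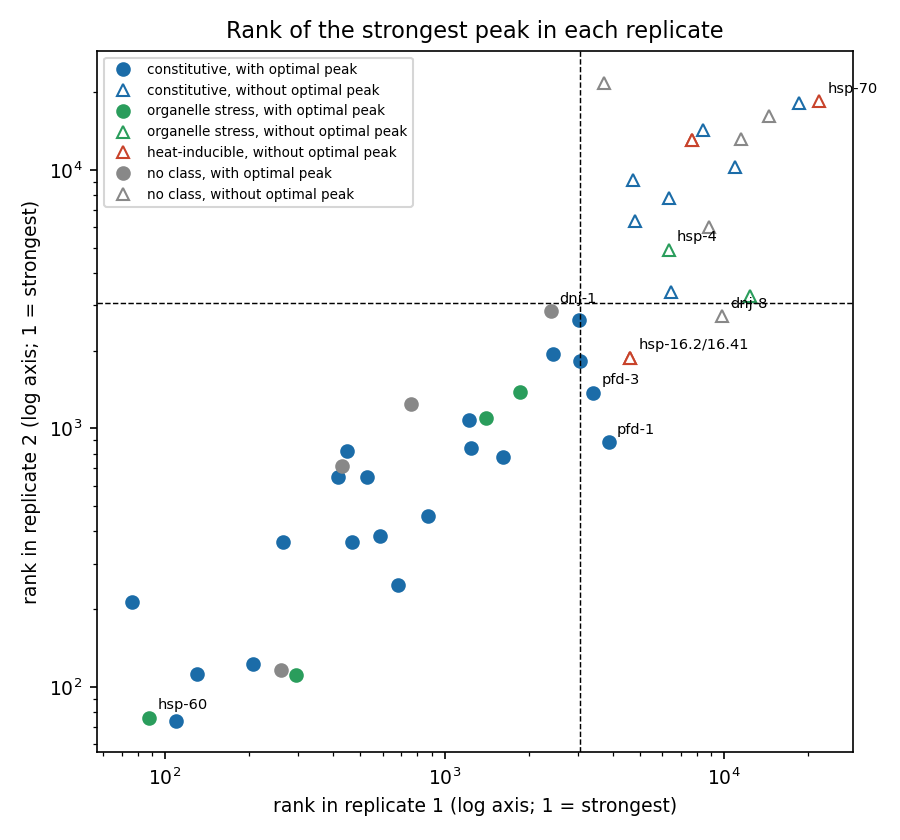
Rank of the strongest peak within 1 kb in replicate 1 (horizontal) and replicate 2 (vertical) for each chaperone gene with a peak in both lists, on log axes with strong peaks at the lower left. Filled circles have an optimal peak, open triangles do not, and the dashed lines mark rank 3053; pfd-1 and pfd-3 pass the line in replicate 1, while hsp-16.2, hsp-16.41 and dnj-8 are inside it in replicate 2 only.

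The summits sat in the upstream part of promoters, often between a pair of genes. Of the 28 strongest summits 27 were upstream of the 5′ end, 21 of them between 100 and 500 bp, and the median distance was -273.5 bp against -226 bp over all genes with a peak. By location 25 lay between genes and 3 in introns. In 14 cases another gene had the nearer 5′ end, so that with each summit given only to its nearest gene 14 of the 65 genes kept a peak (21.5%, against 8.62% of all genes). Of the large Hsp genes only hsp-1 and hsp-3 were then left, and of the cct genes only cct-2.

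**Figure D4:**
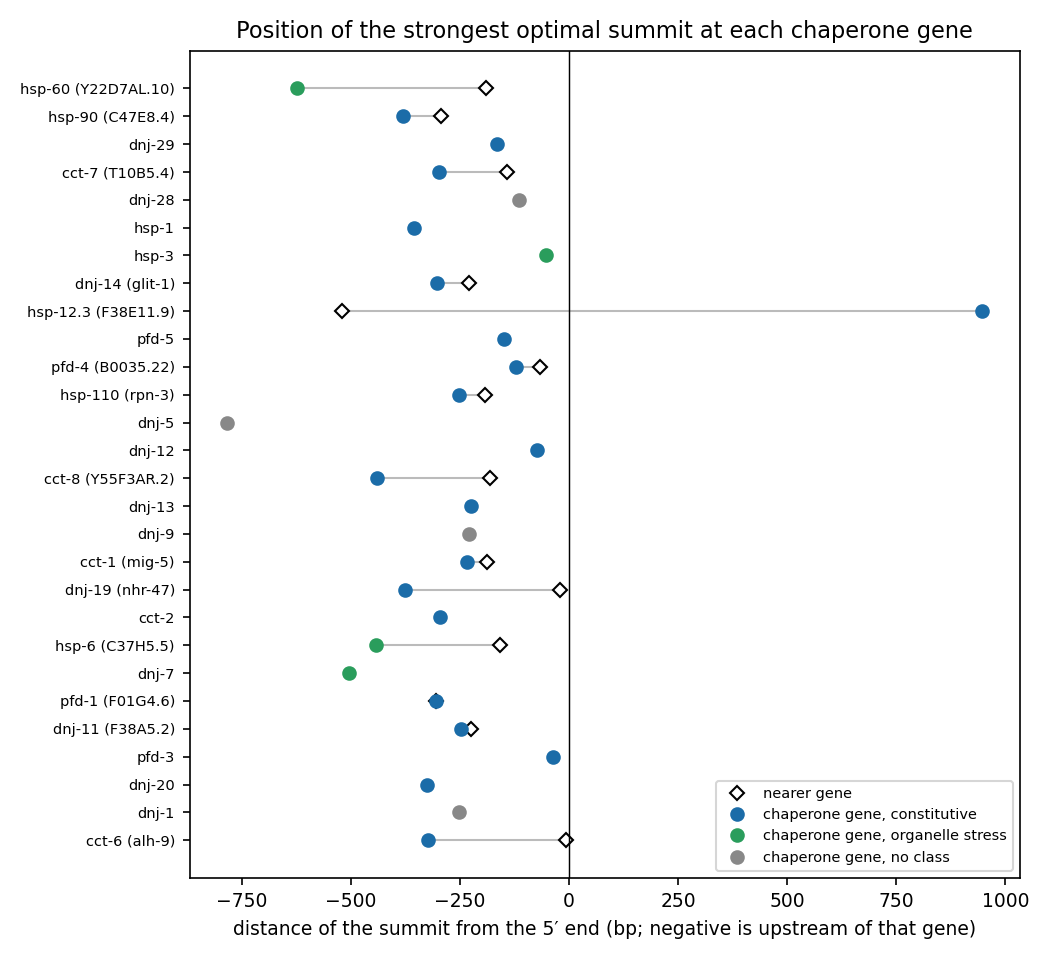
Distance in bp from the 5′ end to the strongest optimal summit (horizontal, negative is upstream) for the 28 chaperone genes with a peak, ordered by signal from the strongest at the top. Filled points are coloured by class, and in 14 rows a diamond gives the distance of the same summit from another gene with a nearer 5′ end; hsp-12.3, at 947 bp, is the only point downstream.

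Peaks were more frequent at chaperone genes with a divergent upstream neighbour, here any neighbour on the opposite strand, at any gap or overlapping the 5′ end. The gap was 0 bp at hsp-90 and 9697 bp at dnj-27, so not all of these are close pairs. Of 41 genes with a divergent neighbour 23 had a peak (56.1%), and of 24 with the upstream neighbour on the same strand 5 did (20.8%). The same order held over all nuclear genes, at 16.12% of 9231 and 7.46% of 10737. In worms many genes are transcribed in operons from 1 promoter, and such genes follow their neighbour closely on the same strand. Of 13 chaperone genes less than 500 bp behind a same-strand neighbour 2 had a peak, dnj-9 and pfd-4, against 7.01% of 4111 genes of this layout in the genome.

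**Figure D5:**
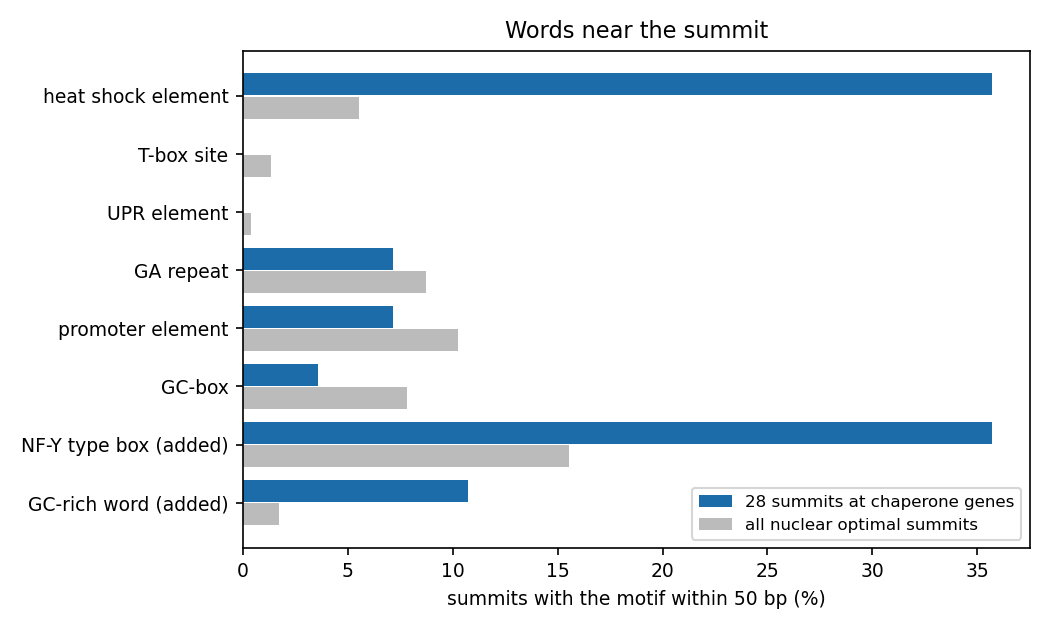
Share of summits with each word within 50 bp, in percent, for the 28 chaperone genes with a peak and for the 3034 nuclear optimal summits. Bars start at 0, "promoter element" is CTGCGTCT, "NF-Y type box" is CCAAT and "GC-rich word" is GGCCGTGG. The heat shock element stands at 35.7% against 5.54%. The T-box site stands at 0 against 1.32%, a share at which few or no matches would be expected in 28 windows.

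Heat shock elements lay under the summits of 10 of the 17 cytosolic chaperone genes with a peak. The element (GAANNTTC or TTCNNGAA, which are their own reverse complements) was within 50 bp of the summit in 10 of the 28 genes (35.7%) and in 168 of all 3034 nuclear optimal summits (5.54%). The genes were hsp-90, hsp-1, hsp-110, dnj-12, dnj-13, dnj-19, cct-1, cct-2, pfd-4 and pfd-5. None of the 4 endoplasmic reticulum and 2 mitochondrial genes with a peak had it there, nor did the 5 of no assigned compartment. At 5.54% of all summits, few such windows would be expected to hold it, and the difference between compartments was not tested. Promoters were read from 250 bp before to 50 bp after the most upstream 5′ end. The element was there in 14 of 28 genes with a peak (50%) and 18 of 37 without (48.6%), against 32.5% of all nuclear genes. This stretch misses many of the summits, whose median distance from a 5′ end was -273.5 bp. At dnj-19 and cct-2 the element was at the summit and not in the promoter. The promoter shares therefore do not say whether the element goes with a peak. All 7 genes of the heat-inducible class had the element in the promoter, and none of them had a peak. The class does not cover heat shock genes outside the symbol rule, of which F44E5.4 and F44E5.5 had a peak.

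The T-box site GGTGTGA lay in 0 of 28 summit windows and in 0 of 65 promoters, against 1.32% of all summits and 2.30% of all promoters. The unfolded protein response element TGACGTGG was likewise in 0 of both, against 0.363% and 0.886%. At shares this low few or no matches would be expected among so few sequences, so these counts of 0 do not set the chaperone genes apart. Nor do they say anything of other forms of these sites. The GA repeat lay at 2 summits, hsp-1 and pfd-4 (7.14%, against 8.70%), the word CTGCGTCT at those of hsp-3 and pfd-3 (7.14%, against 10.3%), and the GC-box GGGCGG at that of dnj-29 (3.57%, against 7.81%). In promoters CTGCGTCT was in 6 of the 7 heat-inducible genes, namely all those of the hsp-16 group, against 3.54% of all genes. These promoters are not independent sequences, since the genes lie in divergent pairs that share the space between them, and 4 of the 6 lie in the exact repeat. Each word was sought on both strands, and a match is a description of sequence.

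Genes of the same pathways outside the symbol rule were counted in the same way, beside 11.5% of all genes. Of 12 co-chaperone genes 5 had a peak, led by bag-1, an Hsp70 nucleotide exchange factor (signal 482, optimal rank 42, replicate ranks 47 and 46), ahsa-1, an activator of the Hsp90 ATPase (341, rank 129), and fkb-6, a prolyl isomerase (131, rank 1406). The summit at -232 bp from ahsa-1 was nearer to C01G10.7 (-130 bp), and that at -455 bp from fkb-6 was nearer to F31D4.2 (-157 bp). Of 18 genes of endoplasmic reticulum folding and its unfolded protein response 11 had one, led by cdc-48.1, an ATPase that extracts proteins for degradation (541, rank 29), enpl-1, the Hsp90 of the compartment (294, rank 210), and pdi-6, a disulfide isomerase (254, rank 325). The response factor xbp-1 had a peak at -23 bp with an optimal rank of 955 and replicate ranks of 1109 and 740. Of 11 genes of the mitochondrial unfolded protein response 5 had a peak, led by tomm-20 (201), clpp-1 (146) and ubl-5 (128), and its factor atfs-1 had one at rank 1688.

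Regulators of the heat shock response and further heat shock genes formed small groups, to be read beside the 11.5% of all genes with a peak. Among 4 regulators 1 had a peak: hsb-1, which binds HSF-1, had a signal of 81.8 at rank 3033, near the foot of the optimal set, and hsf-1 had none, with a pooled peak at rank 14686. Among 5 further Hsp70 and small heat shock genes, which the classes above do not cover, 2 had one. These were the neighbours F44E5.4 and F44E5.5, annotated as heat shock protein 70. They shared a peak between them with a signal of 121, an optimal rank of 1637 and replicate ranks of 2707 and 958. Proteasome genes, another set of housekeeping genes of protein turnover, had peaks in 14 of 33 cases (42.4%), with a median signal of 104. Their share was 27.3% with replicate 1 alone, 36.4% with replicate 2 alone, 18.2% in both top lists and 15.2% among the 1526 strongest peaks. The chaperone genes stood at 40.0%, 47.7%, 40.0% and 33.8% there. With each summit given only to its nearest gene the order was reversed, at 30.3% of proteasome and 21.5% of chaperone genes. It was also reversed within 2 kb (54.5% and 44.6%), and within 500 bp the shares were close (36.4% and 36.9%). The difference between the 2 sets was not tested. The tagged gene itself, tbx-2, had a peak of signal 606 at rank 20. Peak lists do not separate reads of the tagged copy from those of the native gene. This signal therefore cannot be read as binding at the native gene alone.

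Near the limits of the rule, the farthest summits inside 1 kb were those of hsp-12.3 at 947 bp and dnj-5 at -783 bp. The nearest optimal summits outside it were at -1106 bp from dnj-2, 2088 bp from dnj-4 and 2238 bp from dnj-16. The genes without a peak were mostly far from one, with a median distance of 8094 bp to the nearest optimal summit.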

How the data were processed

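ChIP-seq peak lists on ce11 from 2 biological replicates, in 1 group, were used. Per the labels' accompanying file lists, the authors called peaks on each replicate and on the pooled reads, against a control library; these relaxed lists held 23800, 23216 and 25747 peaks, and the optimal set 3053. Aligner, caller and threshold: not given in the sources used here; read depth is unknown. Each list holds a peak signal and a −log10 q-value, both as the authors deposited them; the signal ranked peaks within a list and the −log10 values were not used. Lists on ce10 were not used here.

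A gene had a peak when any of its annotated 5′ ends was within 1 kb of a summit (Ensembl 115 on WBcel235), and the strongest such summit gave its values. Of the small heat shock genes, hsp-16.11 and hsp-16.49 carry the symbols of their copies in Ensembl and were named by identifier from RefSeq. Shares carry 95% Clopper-Pearson intervals; a count of 0 allows 3. The text names every gene with a peak, the heat-inducible and organelle-stress genes, up to 5 genes next below the optimal set, up to 3 leading genes per pathway list with hsf-1, xbp-1, atfs-1 and tbx-2, and any gene nearer to a named summit; other genes were named after their values were seen. Classes and lists came from general knowledge of the genes; 1 of 97 listed symbols, hsf-2, was not found. Members and lists were chosen with earlier results of these data known. Alternatives were other windows, assignments and thresholds and each replicate alone. The words CCAAT and GGCCGTGG were added after seeing the data. The assignment of summits to the most upstream 5′ end was tested on simulated summits at known distances. Python 3.11.15, pandas 2.3.3, NumPy 2.4.6, SciPy 1.17.1 and matplotlib 3.10.9 were used.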

Additional observations from a re-analysis of the deposited data

How the results depend on the processing

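The groups held 65 chaperone genes, 33 constitutive, 6 organelle-stress, 30 cytosolic, 6 endoplasmic reticulum and 4 mitochondrial. The pathway lists held 12 co-chaperones, 18 endoplasmic reticulum response genes, 11 mitochondrial response genes, 4 regulators and 5 further Hsp70 and small heat shock genes. With each summit given only to its nearest 5′ end, 14 chaperone genes had a peak, of which 8 were constitutive, 2 organelle-stress, 6 cytosolic and 0 mitochondrial. So did 2 co-chaperones and 1 of the further Hsp70 and small heat shock genes. Among the 500 strongest peaks these counts were 12, 9, 2, 7 and 1, with 2 endoplasmic reticulum genes, 2 co-chaperones, 5 endoplasmic reticulum response genes, and 0 mitochondrial response genes, heat shock regulators and further Hsp70 genes. Among the stronger 1526 peaks 3 co-chaperones, 3 mitochondrial response genes, 0 regulators and 0 further Hsp70 genes had a peak. Within 500 bp 2 organelle-stress genes and 1 mitochondrial gene had one, and within 2 kb 2 regulators. By construction these settings count fewer peaks or gene ends, and the 2 kb window more. Over all nuclear protein-coding genes the share with a peak was 8.62% by nearest 5′ end and 2.38% among the 500 strongest peaks. It was 6.66% among the 1526 strongest, 8.72% within 500 bp and 15.9% within 2 kb, beside 11.5% in the main count. With either replicate left out the counts ranged from 26 to 31 for all chaperone genes, 18 to 20 for constitutive, 0 to 2 for heat-inducible, 15 to 19 for cytosolic genes and 0 to 1 for regulators; with both top lists required 0 regulators had a peak, and the cause was not tested. The other 100 values on these groups, word counts in summit windows against promoters among them, stayed within 1.5 times. No paired analysis was possible because there was 1 group. Depth is unknown, so weak peaks such as those at the hsp-16 genes cannot be weighed against it.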

Other observations

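The summit windows of chaperone genes held CCAAT, a word bound by the NF-Y factor, in 10 of 28 cases (35.7%) against 15.5% of all nuclear optimal summits. These were hsp-60, hsp-90, dnj-29, hsp-3, pfd-5, dnj-19, cct-2, hsp-6, dnj-7 and dnj-20, and they include genes of all 3 compartments. In promoters the word was in 53.6% of the genes with a peak, 35.1% of those without and 45.5% of all genes. As for the heat shock element, the promoter stretch misses many of the summits. The 8-base word GGCCGTGG lay at the summits of cct-7, pfd-5 and pfd-4 (10.7%) against 1.71% of all summits. Both words were noticed in the printed windows and counted afterwards in the same windows, so the counts are descriptions.

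RefSeq gives the names hsp-16.20 and hsp-16.21 to 2 genes that Ensembl calls F08H9.3 and F08H9.4, so they fell outside the symbol rule. They had no optimal peak, and the pooled peak within 1 kb of both ranked 5607.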
